A study of Sus scrofa with 10 samples.

Results

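XBP1, ATF4, CRELD2 and SELENOS are 4 genes of the unfolded protein response, the set of pathways that a cell uses when misfolded proteins build up in the endoplasmic reticulum (ER). Pig fibroblasts of the cross Danish Landrace/Yorkshire x Duroc, taken at fetal day 24 from fetal tissue without the head and grown on gelatin in serum, were parted with magnetic beads into cells with (SSEA1+) and without (SSEA1-) the surface carbohydrate SSEA-1. The study measured total RNA of 5 SSEA1+ and 5 SSEA1- fractions on Affymetrix porcine arrays, 1 array each, with replicate numbers 1 to 5 in both fractions. No fraction carries a genetic change or a drug treatment in the labels, and the cells of both fractions share breed, age and culture. The labels count the 5 sorts as biological replicates while the title speaks of a cell line, so adjusted p-values measure the spread between these sorts, which need not be that between animals. All probe sets with a single symbol of one of the 4 genes in the platform annotation were taken, which gave 5 of the 24123 probe sets on the array: 2 for ATF4 and 1 for each of the others. The 4 genes were chosen by their SSEA1+ against SSEA1- differences in these same arrays, so those differences are given as a description without a test.

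When folding in the ER falls behind, 3 sensors in its membrane respond. IRE1 (gene ERN1) cuts the XBP1 mRNA so that it encodes an active transcription factor, PERK (gene EIF2AK3) phosphorylates the initiation factor eIF2, which favours translation of ATF4, and ATF6 is cleaved into a transcription factor in the Golgi. XBP1 and ATF6 raise ER chaperones, folding enzymes and degradation factors, while ATF4 raises genes of amino acid supply and stress signalling. XBP1 and ATF4 are both basic leucine zipper (bZIP) factors, CRELD2 is a secreted ER protein induced by ER stress, and SELENOS is a selenoprotein of the ER membrane that binds the degradation machinery. The arrays give one total signal per probe set, with no separate value for cut XBP1 mRNA, for eIF2 phosphorylation or for ATF4 translation.

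XBP1, ATF4, CRELD2 and SELENOS read lower in the SSEA1+ fraction on the brightest probe set of each, and for all 4 no SSEA1+ array was as high as any SSEA1- array. SELENOS differed most, at -0.77 ± 0.08 (SE) on the log2 scale, followed by XBP1 at -0.45 ± 0.06, CRELD2 at -0.33 ± 0.07 and ATF4 at -0.31 ± 0.08, with 5 arrays in each fraction. These correspond to SSEA1+ signals of 0.587, 0.734, 0.796 and 0.807 times the SSEA1- signals. In bulk RNA of this kind, fewer cells expressing a gene and less RNA per cell cannot be told apart. Values throughout are log2 signals, in which one unit is a doubling, and levels of different probe sets are not comparable with each other.

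XBP1 read 7.58, 7.64, 7.65, 7.48 and 7.51 in SSEA1+ replicates 1 to 5. In SSEA1- replicates 1 to 5 it read 7.97, 8.04, 8.05, 8.08 and 7.95. The fractions formed separate groups, with 0.301 between the highest SSEA1+ and the lowest SSEA1- array. The means were 7.57 ± 0.08 and 8.02 ± 0.05 (SD, n = 5 each). By replicate number the differences were -0.39, -0.40, -0.40, -0.59 and -0.44, so replicate 4 held the largest and the other 4 lay close together. The spread of XBP1 around its fraction means, an SD of 0.066, was larger than that of 2.77% of the probe sets above background, whatever their brightness. Calls depend on this spread and XBP1 was chosen by its difference, so this rank is a description only. The background is a log2 signal of 0.352, the upper end of controls whose targets a pig sample lacks.

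ATF4 on its bright probe set read 8.60, 8.65, 8.52, 8.94 and 8.74 in SSEA1+ replicates 1 to 5. The SSEA1- replicates read 8.99, 8.95, 8.96, 9.06 and 9.04. The SSEA1- arrays were tightly grouped, at 8.9998 ± 0.047 (SD, n = 5), whereas the SSEA1+ arrays were more spread, at 8.69 ± 0.16 (SD, n = 5). SSEA1+ replicate 4 came within 0.011 of the lowest SSEA1- array, so the separation of the fractions was bare. The differences by replicate number ran from -0.12 in replicate 4 to -0.44 in replicate 3.

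The second ATF4 probe set was dim and did not show the difference. It read 0.32, 0.32, 0.57, 0.65 and 0.43 in the SSEA1+ replicates and 0.47, 0.45, 0.08, 0.36 and 0.67 in the SSEA1- replicates. These values lie at the background level, which 7 of the 10 arrays exceeded, and the fractions overlapped fully. Its difference was 0.05 ± 0.11 (SE), and 3 of 5 replicate numbers read lower in SSEA1+. The mean of both ATF4 probe sets differed by -0.13 ± 0.08 (SE).

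CRELD2 read 4.04, 4.26, 4.20, 4.03 and 4.10 in SSEA1+ replicates 1 to 5. It read 4.43, 4.45, 4.49, 4.41 and 4.51 in the SSEA1- replicates. Every SSEA1+ array lay below every SSEA1- array, by at least 0.152, and the means were 4.13 ± 0.10 and 4.46 ± 0.04 (SD, n = 5 each). By replicate number the differences ran from -0.19 in replicate 2 to -0.40 in replicate 5.

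SELENOS read 6.60, 6.85, 6.59, 6.66 and 6.50 in SSEA1+ replicates 1 to 5. The SSEA1- replicates read 7.34, 7.46, 7.32, 7.50 and 7.43. Its fractions stood farthest apart of the 4 genes, with a gap of 0.463 and means of 6.64 ± 0.13 and 7.41 ± 0.08 (SD, n = 5 each). By replicate number the differences ran from -0.60 in replicate 2 to -0.93 in replicate 5. Among the 23935 probe sets that are not controls, 0.393% had a more negative difference than SELENOS, against 2.61% for XBP1, 5.29% for CRELD2 and 5.92% for the bright ATF4 probe set.

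**Figure D1:**
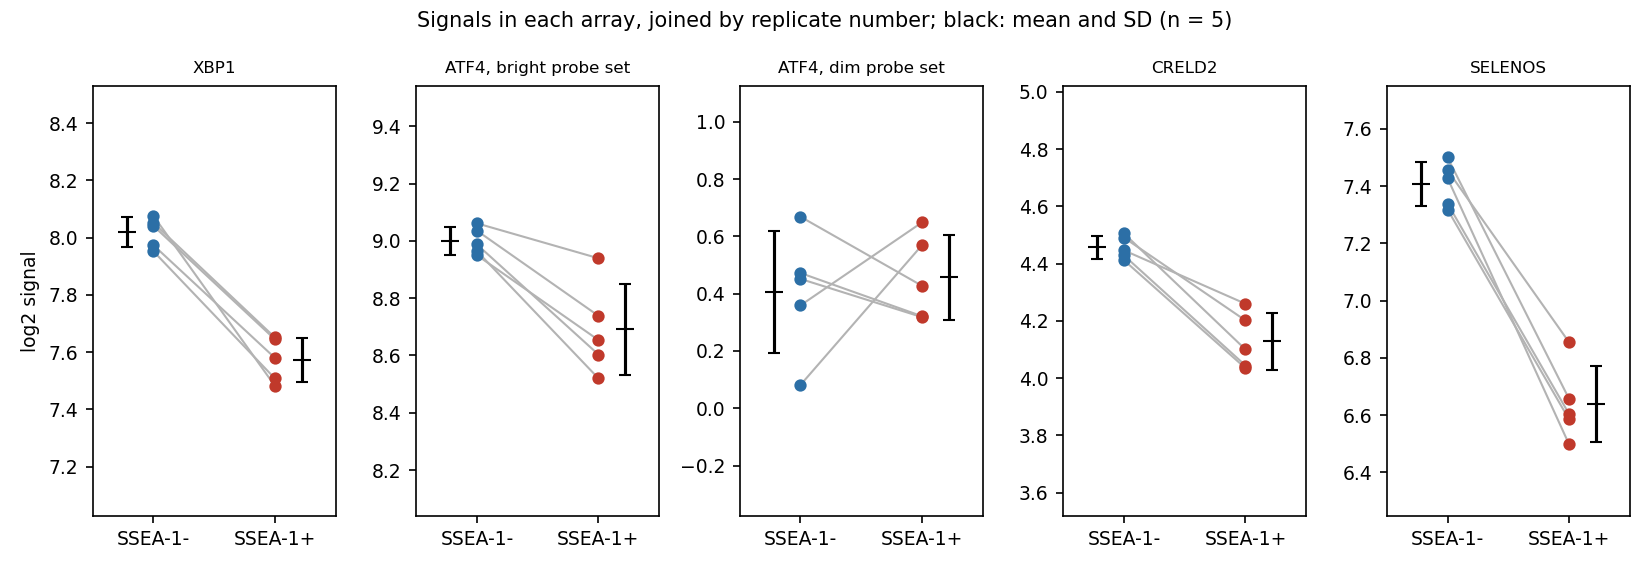
Log2 signal (vertical axes, each spanning 1.5 units) of the 5 probe sets in SSEA1- (blue) and SSEA1+ (red) arrays; grey lines join arrays of one replicate number, and black bars give mean and SD of 5 arrays. XBP1, CRELD2 and SELENOS part cleanly, the bright ATF4 probe set parts by 0.011, and the dim ATF4 probe set overlaps.

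Of the 5 probe sets, 4 were called lower in the fit over all probe sets, in limma at an adjusted p under 0.05, where 3.51% of all probe sets that are not controls were called lower. The fractions of the same 4 did not overlap, with SSEA1+ below SSEA1-, as for 3.32% of all probe sets that are not controls. Both counts follow from how the genes were chosen. The order of the 4 differences is a description as well: XBP1, CRELD2 and ATF4 lie within the sum of their standard errors of their neighbours in that order, and SELENOS lies farther from XBP1 than that.

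Arrays that were high for one of these genes within a fraction were not high for all of them. After each fraction's mean was removed, XBP1 and CRELD2 correlated at r = 0.531 (Spearman's rho 0.539) over the 10 arrays, and XBP1 and the bright ATF4 probe set at r = -0.69 (rho -0.60). The XBP1 and ATF4 value stayed between -0.82 and -0.50 when single arrays were left out. These pooled values do not describe each fraction: SSEA1- replicate 4 held the highest XBP1 of its fraction together with its highest ATF4 and its lowest CRELD2. SELENOS and ATF4 gave r = 0.099. CRELD2 and SELENOS gave r = 0.378, which ran from -0.35 to 0.502 without single arrays. The 10 points share array-wide normalization and, in pairs, a replicate number, and no test was made. XBP1 and ATF4 also correlated in opposite directions with a technical level of the arrays described below, at r = 0.568 and -0.52. The part of that level in their correlation was not tested.

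The genes whose deviations within the fractions were most like those of each of the 4 were chosen by the highest Pearson r over the 10 arrays among 5690 genes above background. For XBP1 these were WDR45, an autophagy protein that binds phosphoinositides, at r = 0.983, the sugar transporter SLC50A1 at 0.975 and the lysosomal amino acid transporter SLC38A9 at 0.959. For ATF4 they were CWC25, a splicing factor, at 0.966, DNTTIP2 at 0.954 and NCF1, a subunit of the phagocyte NADPH oxidase, at 0.949. CRELD2 was most like GCDH, a mitochondrial dehydrogenase, at 0.904, and SELENOS most like ZNF205 at 0.861. LYPLA1 at 0.898 and CDK5RAP3 at 0.869 came next for CRELD2, and ATG7 at 0.853 and ACPT at 0.851 for SELENOS. As the highest of 5690 values over 10 arrays, these r are high by selection, and no test was made. With single arrays left out, ZNF205 fell to 0.631, ACPT to 0.651 and CDK5RAP3 to 0.743, while WDR45 stayed at or above 0.976. Of these 12 genes only DNTTIP2 passed, being lower in SSEA1+ with a log2 difference of -0.45 (adjusted p = 0.00881 in limma). The other 11 lay between -0.17 and 0.17 and did not pass.

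Array-wide technical levels moved with the fraction. The poly-A spike-in controls, transcripts added in known amounts at the start of labelling, were 0.82 higher relative to the hybridisation controls in SSEA1+, with no SSEA1+ array as low as any SSEA1- array (-3.45 against -3.80 for the nearest). The hybridisation controls were not level themselves: they read 6.75 to 7.17 in SSEA1+ and 6.21 to 6.60 in SSEA1-, without overlap. The poly-A controls by themselves read 3.36 to 4.52 and 1.89 to 2.79. The part of the hybridisation controls in the differences of the 4 genes was not tested, and the poly-A level below is relative to them. With this relative poly-A level as a covariate the bright ATF4 probe set differed by -0.13 ± 0.15, XBP1 by -0.55 ± 0.12, CRELD2 by -0.35 ± 0.13 and SELENOS by -0.70 ± 0.15 (SE). With the replicate block beside it, the values were -0.04 ± 0.21 for ATF4, -0.61 ± 0.21 for XBP1, -0.44 ± 0.22 for CRELD2 and -0.87 ± 0.23 for SELENOS. So XBP1, CRELD2 and SELENOS were as low or nearly as low with the covariate. The ATF4 difference shrank from -0.31 to values smaller than their standard errors in both fits. Since the levels of the fractions do not overlap, these values are extrapolated by the model. Within the fractions the level correlated with ATF4 at r = -0.52, with XBP1 at r = 0.568, with CRELD2 at r = 0.079 and with SELENOS at r = -0.22 over the 10 arrays.

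**Figure D2:**
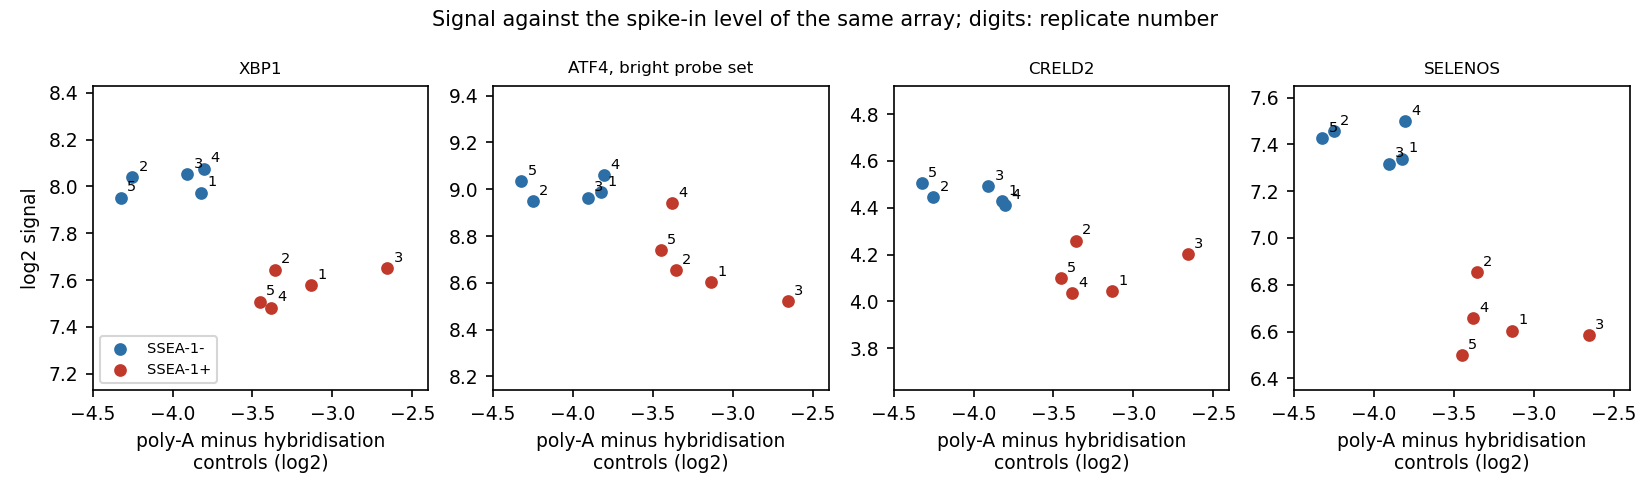
Log2 signal (vertical axes, each spanning 1.3 units) of the 4 genes against the level of the poly-A controls relative to the hybridisation controls (log2, horizontal axes) in each array, with replicate numbers beside the points. In SSEA1+ (red) ATF4 is highest in replicates 4 and 5, which have the lowest spike-in levels, and lowest in replicate 3, which has the highest; SSEA1- arrays (blue) lie to the left of all SSEA1+ arrays.

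Signs of RNA quality are given by controls read near both ends of a transcript. The 3' minus 5' signal of the actin control was 1.17 ± 0.07 in SSEA1+ and 1.24 ± 0.10 in SSEA1-, and that of GAPDH 0.882 ± 0.08 and 0.951 ± 0.06 (SD, n = 5 each). For the elongation factor control it was 0.318 ± 0.09 and 0.223 ± 0.01 (SD, n = 5 each). Its fractions parted barely, with 0.248 in the lowest SSEA1+ and 0.241 in the highest SSEA1- array, and SSEA1+ replicate 3 read highest at 0.463. The part of these controls in the differences of the 4 genes was not tested.

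The cells carried fibroblast markers, and all 12 measured of 14 lay above background. Among them were the intermediate filament VIM at 11.3 and 11.2 and fibronectin FN1 at 10.5 and 10.7 in SSEA1+ and SSEA1-. The collagen gene COL3A1 of the same list read only 0.755 and 0.681. By mean signal, 5852 of 6765 genes lay above background. So did 7 of 8 measured epithelial, 4 of 8 endothelial, 2 of 4 blood, 3 of 4 muscle and 3 of 4 neural markers. The muscle marker DES read 7.20 and 6.92, and the epithelial marker KRT8 5.42 and 5.47. The collagen gene COL1A2 rose by 1.19 ± 0.13 (SE, adjusted p = 0.000434 in limma), and no other marker of the 6 lists passed. With the replicate block 5 markers passed in limma: COL1A2, the fibroblast surface protein THY1, which rose by 0.34, the keratin KRT19, which rose by 0.40, and 2 fibroblast markers that fell in 5 of 5 pairs. These were the matrix protein POSTN, which fell by 0.59 (adjusted p = 0.000737), and the surface protease FAP, which fell by 0.50 (adjusted p = 0.00433). Each marker was read from its brightest probe set alone. COL1A2 and POSTN have 2 probe sets and THY1 has 3, and their dimmer ones are not given here. The summed linear signal of the 12 fibroblast markers ran from 5137 to 5809 in SSEA1+ and from 5573 to 6019 in SSEA1-. The sums of 8 endothelial markers, 10.3 to 11.3 and 10.4 to 11.4, and of 4 blood markers, 22.1 to 27.8 and 24.4 to 28.8, overlapped between the fractions, with CDH5, TEK and PTPRC below background on every array. The 8 epithelial markers summed to 39.4 to 98.7 and 40.0 to 111, the 4 muscle markers to 112 to 204 and 72.7 to 156, and the 4 neural markers to 10.3 to 13.8 and 11.3 to 14.7. Their part in the differences of the 4 genes was not tested.

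The differences of XBP1, CRELD2 and SELENOS changed little with the way the arrays were scaled. Over 7 fits that used the deposited scale, other scalings, the replicate block, a filter on level or another variance model, XBP1 ran from -0.45 to -0.43, CRELD2 from -0.33 to -0.31, SELENOS from -0.77 to -0.75 and the bright ATF4 probe set from -0.32 to -0.30. Leaving out single arrays or both arrays of a replicate number gave -0.46 to -0.41 for XBP1, -0.36 to -0.31 for CRELD2, -0.82 to -0.73 for SELENOS and -0.37 to -0.27 for ATF4. The lowest ATF4 value arose without SSEA1+ replicate 4, the array in which ATF4 was nearest to the SSEA1- level.

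**Figure D3:**
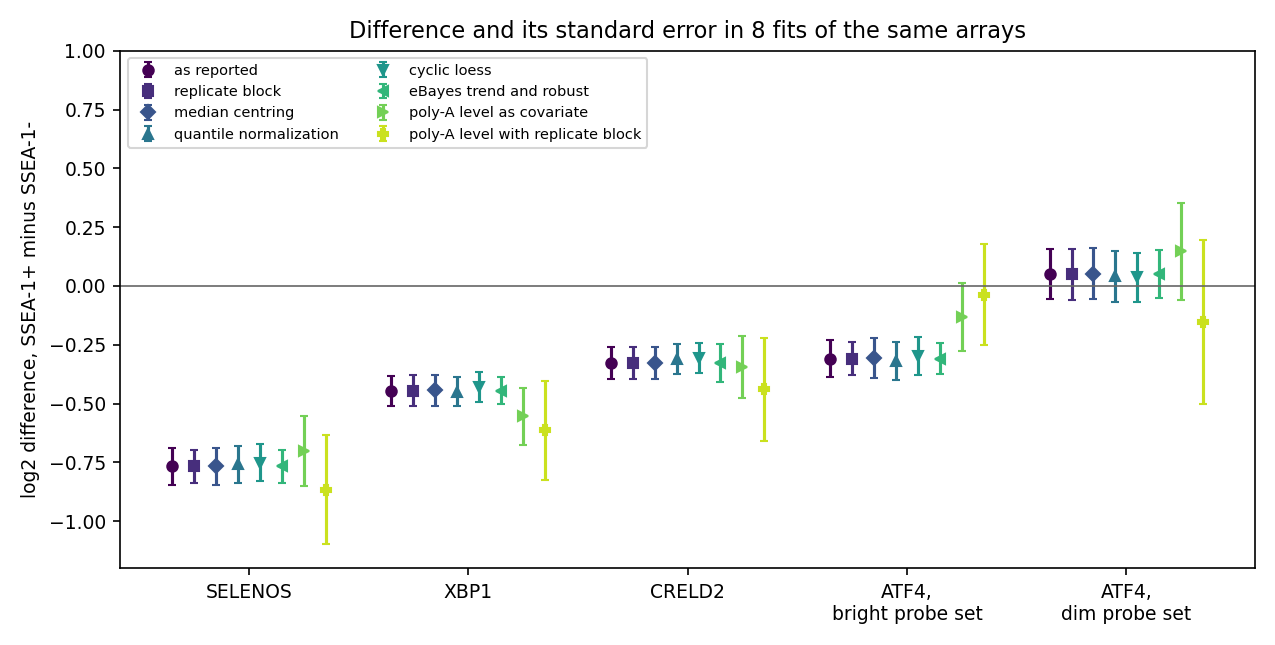
Log2 difference between SSEA1+ and SSEA1- (vertical axis, bars are standard errors) of the 5 probe sets in 8 fits of the 10 arrays, distinguished by marker and colour. SELENOS, XBP1 and CRELD2 stay below 0 in all 8 fits. The bright ATF4 probe set moves from -0.31 to -0.13 and -0.04 in the 2 fits with the poly-A level. The replicate block by itself and the variance model can change only the bars, not the differences.

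Other genes of the pathways were read from 10 lists of known regulators and targets, each gene from its brightest probe set. The lists hold 306 genes beside the 4, of which 193 were measured under a single symbol. In limma 6 of the 193 fell and 6 rose, or 3.11% each way, and over all 6765 genes 4.18% fell and 3.21% rose. With the replicate block 15 fell and 11 rose, or 7.77% and 5.70%, where over all genes 8.62% fell and 5.65% rose. These shares lie near those of all genes. Shares of the single lists below rest on few genes and were not tested. The median difference of the 193 was -0.03, against -0.01 over all genes. With the poly-A level as covariate none of the 193 passed in limma, with 9 higher and 12 lower at an unadjusted p under 0.05. That fit called only 7 of the 23935 probe sets that are not controls higher and 5 lower. The lack of calls therefore says little about these genes.

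**Figure D4:**
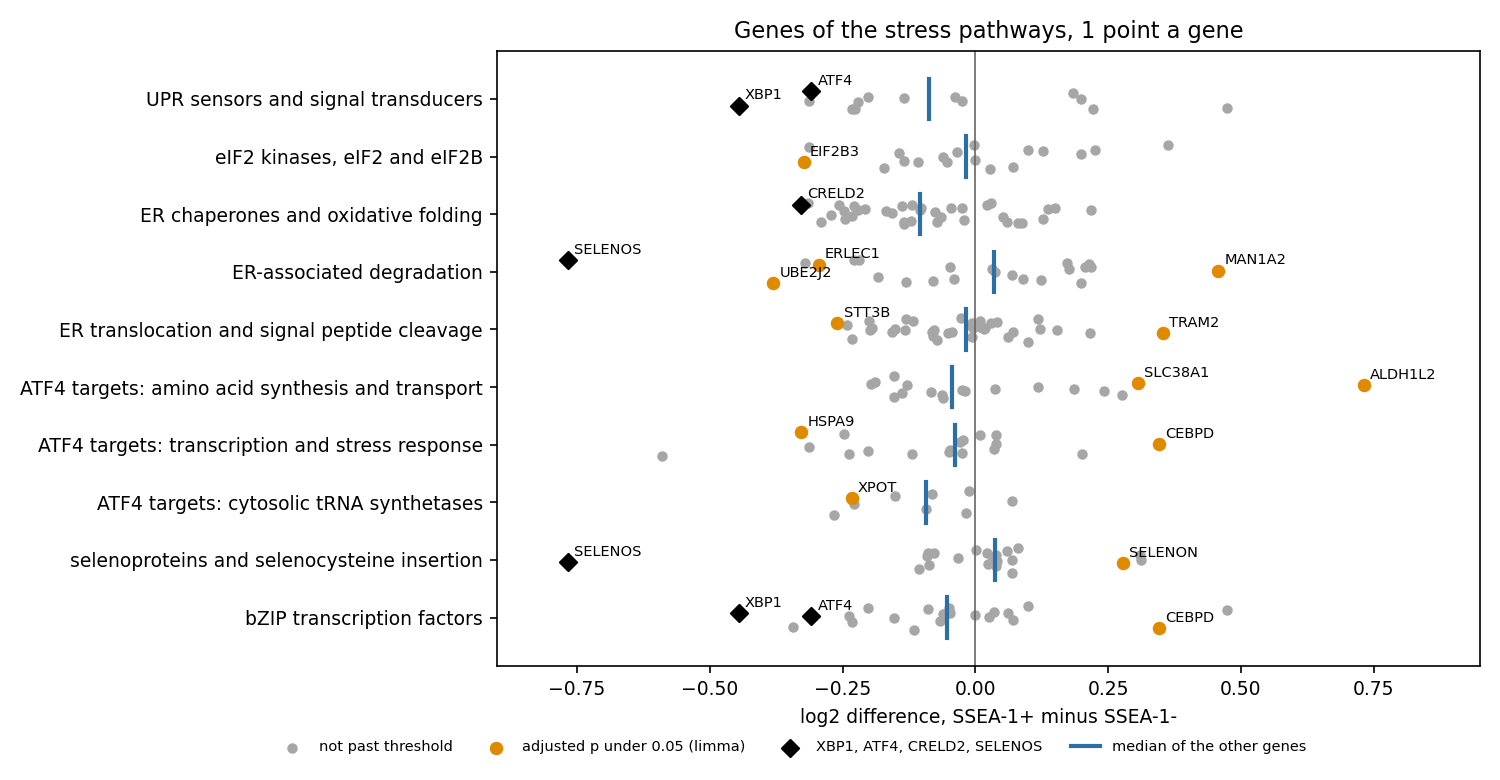
Log2 difference between SSEA1+ and SSEA1- (horizontal axis) of each measured gene in 10 pathway lists, 1 point a gene; diamonds are the 4 genes, orange points the others past the threshold in limma, and blue lines list medians without the 4. The medians lie between -0.10 and 0.04, and SELENOS stands at the low end of both its lists. The 4 genes were chosen by this difference.

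Among sensors and signal transducers of the unfolded protein response, none of the 12 other measured genes passed in limma, with 2 higher and 3 lower at an unadjusted p under 0.05, and their median was -0.09. The ER chaperone HSPA5 (BiP), which holds the sensors inactive, read 9.38 ± 0.11 in SSEA1+ and 9.60 ± 0.06 in SSEA1- (SD, n = 5 each), a difference of -0.22 (adjusted p = 0.0865 in limma). ATF6B, a relative of ATF6, read -0.23 (adjusted p = 0.0794) and was lower in 5 of 5 pairs of equal replicate number. CREB3L2, an ER-bound transcription factor of secretory cells, read 0.47 ± 0.13 (SE, adjusted p = 0.0531), higher in all 5 pairs, and with the replicate block it rose (adjusted p = 0.0140). DDIT3 (CHOP), the pro-apoptotic factor downstream of ATF4, read -0.20 and DNAJB9, a co-chaperone induced by XBP1, -0.14, without passing; the other probe sets of DNAJB9 read -0.21 and 0.25. The sensors ERN1, EIF2AK3 and ATF6 and the targets HERPUD1 and TRIB3 were not read here under a single symbol.

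Upstream of ATF4, among the eIF2 kinases, eIF2 and its exchange factor eIF2B, 1 of 18 measured genes fell and none rose in limma. The fall makes 5.56%, against 4.18% over all genes. At an unadjusted p under 0.05 in limma 1 was higher and 1 lower. EIF2B3, a subunit of eIF2B, fell by 0.32 ± 0.08 (SE, adjusted p = 0.0304), lower in 5 of 5 pairs, and lost this call in 7 of 10 fits without a single array. GCN1, an activator of the eIF2 kinase GCN2, read 0.36 ± 0.11 (SE, adjusted p = 0.0698), and with the replicate block it rose (adjusted p = 0.0181). PPP1R15B, which directs dephosphorylation of eIF2, read 0.20, with 0.03 and 0.07 on its other probe sets, and did not pass.

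ER chaperones and folding enzymes, the class to which CRELD2 belongs, had no call. Of the 35 other measured members 25 read lower and 10 higher, where 52.4% of all genes read lower, with a median of -0.10 and a range from -0.31 to 0.22. None passed in limma, although 11 were lower and 1 higher at an unadjusted p under 0.05; the replicate block gave 4 falls, or 11.4% against 8.62% over all genes. With the poly-A covariate 2 were lower and 0 higher at an unadjusted p under 0.05 in limma, and with the block beside it 0 each way; none passed in either fit. HSP90B1 (GRP94), an ER chaperone of secreted and membrane proteins, read -0.31 ± 0.11 (SE, adjusted p = 0.102) and -0.26 on its second probe set, lower in 4 of 5 pairs, and with the replicate block it fell (adjusted p = 0.0479). The folding proteins ERP29 at -0.26 (adjusted p = 0.0623) and TMX1 at -0.25 (adjusted p = 0.0566) were lower in 5 of 5 pairs and fell with the replicate block. With the poly-A covariate HSPA5 read -0.02 ± 0.12 and HSP90B1 -0.06 ± 0.19, and with the block beside it 0.02 ± 0.22 and 0.231 ± 0.23 (SE).

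ER-associated degradation, in which SELENOS acts, had calls both ways. Of 22 other measured members 2 fell and 1 rose in limma, or 9.09% and 4.55%, against 4.18% and 3.21% over all genes. With the replicate block 4 fell and 1 rose, or 18.2% and 4.55%, against 8.62% and 5.65% over all genes. These shares rest on few genes and were not tested. The median was 0.03. UBE2J2, a ubiquitin-conjugating enzyme anchored in the ER membrane, fell by 0.38 ± 0.07 (SE, adjusted p = 0.00636), with 4.75 ± 0.04 in SSEA1+ and 5.13 ± 0.10 in SSEA1- (SD, n = 5 each). Its call held without any single array and ended without both arrays of replicate 5. ERLEC1, a lectin that recognises misfolded glycoproteins, fell by 0.30 ± 0.07 (SE, adjusted p = 0.0272) and lost the call in 5 of 10 single-array fits. MAN1A2, a mannosidase that trims N-glycans, rose by 0.46 ± 0.11 (SE, adjusted p = 0.0258) and lost the call in 6 of 10.

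Among genes of ER translocation, signal peptide cleavage and N-glycosylation, 1 of 36 fell and 1 rose in limma, or 2.78% each way. With the replicate block 2 fell and 1 rose, or 5.56% and 2.78%. Over all genes 4.18% fell and 3.21% rose, or 8.62% and 5.65% with the block. STT3B, a catalytic subunit of the oligosaccharyltransferase, fell by 0.26 ± 0.06 (SE, adjusted p = 0.0224), and TRAM2, a translocon-associated membrane protein, rose by 0.35 ± 0.10 (SE, adjusted p = 0.0494). STT3B lost its call in 4 of 10 single-array fits and TRAM2 in 8 of 10. SRP54, a subunit of the signal recognition particle, read -0.23 (adjusted p = 0.0648) in 5 of 5 pairs.

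ATF4 is known to activate genes of amino acid synthesis and transport. Of 18 measured, 11 read lower and 7 higher, with a median of -0.04. In limma 2 rose, or 11.1% against 3.21% over all genes, and none fell. At an unadjusted p under 0.05 in limma 4 were higher and 1 lower. The block gave 3 rises, or 16.7% against 5.65% over all genes. ALDH1L2, a mitochondrial folate enzyme, rose by 0.73 ± 0.16 (SE, adjusted p = 0.0193), from 1.27 ± 0.32 to 2.00 ± 0.30 (SD, n = 5 each), and lost its call without replicate 5 of either fraction and without both arrays of replicate 3 or 5. SLC38A1, a transporter of neutral amino acids, rose by 0.31 ± 0.08 (SE, adjusted p = 0.0425), with 0.50 and 0.21 on its other probe sets, of which the first passed too; the call of the brightest one was lost in 8 of 10 single-array fits. SLC1A5, a glutamine transporter, read 0.28 (adjusted p = 0.0545) and rose with the replicate block. ASNS, asparagine synthetase and a classic ATF4 target, read 8.89 ± 0.10 in SSEA1+ and 8.90 ± 0.11 in SSEA1- (SD, n = 5 each), a difference of -0.02 ± 0.08 (SE, adjusted p = 0.935).

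Of 18 measured ATF4 targets in transcription and stress response, 1 rose and 1 fell in limma. That makes 5.56% each way, where over all genes 3.21% rose and 4.18% fell. CEBPD, a bZIP factor, rose by 0.35 ± 0.07 (SE, adjusted p = 0.0153) on its brightest probe set, while its other probe sets read 0.01 and 0.21 without passing. The mitochondrial chaperone HSPA9 fell by 0.33 ± 0.08 (SE, adjusted p = 0.0385), with -0.24 and -0.67 on its other probe sets, of which the last passed. The call of HSPA9 on the brightest probe set was lost in 8 of 10 single-array fits, and that of CEBPD in none of 10 but without both arrays of replicate 1, 3 or 5. SQSTM1, an autophagy receptor, read 0.20 (adjusted p = 0.218).

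Genes of tRNA charging and export, which ATF4 also induces, read lower in 8 of 9 measured cases, where 52.4% of all genes did, with a median of -0.09. In limma 1 of the 9 fell, or 11.1% against 4.18% over all genes, and with the poly-A covariate none passed, 0 being higher and 2 lower at an unadjusted p under 0.05. XPOT, the exporter of tRNA from the nucleus, fell by 0.23 ± 0.06 (SE, adjusted p = 0.0430) on its bright probe set, and its second read 0.16 without passing. That call was lost in 8 of 10 single-array fits, with median centring and with cyclic loess. The asparagine and leucine tRNA synthetases NARS at -0.23 (adjusted p = 0.0520) and LARS at -0.27 (adjusted p = 0.0645) fell with the replicate block, which gave 3 falls of 9, or 33.3%, against 8.62% over all genes. The shares of this list rest on few genes and were not tested. None of the 9 rose in limma, and none was higher at an unadjusted p under 0.05.

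SELENOS was also set beside 20 other measured genes of selenoproteins and selenocysteine insertion, of which 16 lay above background. Of these 16, 11 read higher and 5 lower, and over the 20 the median was 0.04 and the lowest difference -0.11. The median was 0.05 with the poly-A covariate and -0.10 with that level and the replicate block. SELENOS was chosen by its own difference, and the difference between SELENOS and these genes was not tested. In limma 1 of the 20 rose, or 5% against 3.21% over all genes, and none fell. At an unadjusted p under 0.05 in limma 3 were higher and 0 lower. The block gave 3 rises, or 15% against 5.65% over all genes, shares that rest on few genes and were not tested. SELENON, an ER selenoprotein, rose by 0.28 ± 0.07 (SE, adjusted p = 0.0372) and lost that call in 7 of 10 single-array fits. SELENOM at 0.31 (adjusted p = 0.143) and SELENOW at 0.31 (adjusted p = 0.150) were higher in 5 of 5 pairs and rose with the replicate block; with the poly-A covariate they read 0.05 and -0.07.

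Among the 20 other measured bZIP transcription factors, the family of XBP1 and ATF4, CEBPD rose and none fell in limma. The rise makes 5%, against 3.21% over all genes. At an unadjusted p under 0.05 in limma 2 were higher and 2 lower. CREB3L2 rose too once the replicate block was added, which made 10% against 5.65% over all genes. The median of the 20 was -0.05 and their range ran from -0.34 to 0.47, so XBP1 read lower than each of them. XBP1 was chosen by this difference, so its place is a description only. ATF4, chosen in the same way, read -0.31 on its bright probe set, which is not below NFIL3 at -0.34.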

How the data were processed

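Per the submitters' processing notes, the authors summarised the arrays with RMA, and the deposited table holds its log2 values; which RMA version and background step they used is not given in the sources used here. Per array, 4.55% to 8.16% of the values are below 0. Medians of the arrays were 1.15 to 1.19, correlations between arrays 0.987 to 0.996, and 69.3% to 72.5% of probe sets exceeded the background, the 95th percentile of 23 controls without a target. Precision is limited by the number of arrays.

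Of the probe sets, 10099 had 1 symbol in the platform annotation, 198 several and 13826 none; 9989 matched a Sscrofa11.1 RefSeq gene by identifier, and 11 listed genes were found by an older symbol or synonym. Each gene was read from its brightest probe set. limma 3.58.1 (R 4.3.3; lmFit, eBayes) was fitted to all 24123 probe sets, with Benjamini-Hochberg adjustment at 0.05, and was tested on simulated data.

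The 4 genes and all lists were chosen with earlier results of these data known. Named genes are the 3 with the smallest p per list, 10 well-known genes of the response where measured, and the 3 most alike per gene. The design text describes sorts that each gave both fractions, and same-numbered arrays deviated together (r = 0.212, 0.580, 0.353, 0.122 and 0.235 for numbers 1 to 5), so the numbers pair the arrays. For 7 of the 10 arrays, the most alike array of the other fraction had the same number. The main fit holds the fraction only and leaves this pairing out, which enters as the replicate block. Alternatives covered the replicate block, scaling, a filter on level, the variance model, averaging of probe sets, the poly-A level, a stricter threshold and left-out arrays. A planned search of promoters for motifs was not run, because no promoter sequence was used here.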

Additional observations from a re-analysis of the deposited data

How the results depend on the processing

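XBP1, CRELD2, SELENOS and the bright ATF4 probe set kept their direction in all alternatives run; the ranges without arrays stand in the report. The dim ATF4 probe set ran from -0.06 without replicate 3 to 0.123 without replicate 5. Values that moved by more than the replicate SD were -0.13 for ATF4 with its probe sets averaged, -0.13 for ATF4 and -0.55 for XBP1 with the poly-A level, and -0.038 for bright ATF4, -0.15 for dim ATF4, -0.44 for CRELD2 and -0.61 for XBP1 with the poly-A level and replicate block. Same-numbered arrays are pairs, and with the replicate block 1185 probe sets that are not controls were called higher and 1586 lower, against 598 and 839 without it. These counts were 169 and 205 at an adjusted p under 0.01, 7 and 5 with the poly-A level, 3 and 1 with that level and the block, and 165 to 742 and 190 to 1087 without arrays, both lowest without replicate 5. With cyclic loess 732 were higher and 709 lower, and with quantile normalization 725 and 688. Of the 193 list genes, 6 fell and 6 rose; the falls became 11 with the trended, robust variance model, 15 with averaged probe sets, 15 with the replicate block, 0 with the poly-A level, 0 with both, and 0 (without replicate 5) to 11 (without SSEA1+ replicate 4) without arrays. The rises became 10 with averaged probe sets, 11 with the replicate block, 0 with the poly-A level, 0 with both, and 0 to 8 without arrays. At an unadjusted p under 0.05 in limma, 9 were higher and 12 lower with the poly-A level, 8 and 6 with both, 15 and 20 without replicate 5, and 11 and 21 without replicate 3. Directions turned for DNAJB9 (0.19) and SELENOW (-0.069) with the poly-A level, for HSP90B1 (0.23), HSPA5 (0.021), HSPA9 (0.0055), SELENOM (-0.14) and SELENOW (-0.088) with both, and for ASNS, which ran from -0.063 to 0.021 without arrays. The cause of these changes was not tested. The block changed calls of other named genes only as stated beside them. The planned motif search was not run.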

Other observations

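The genes beside the 4 on the chromosomes, in the gene order of Sscrofa11.1, were read where a single symbol allowed it. RPS19BP1 beside ATF4 read 5.22 in SSEA1+ and 5.33 in SSEA1-, a difference of -0.10 ± 0.11 (SE, adjusted p = 0.662 in limma). PIM3, a serine/threonine kinase gene beside CRELD2, differed by 0.20 ± 0.10 (SE, adjusted p = 0.278 in limma). CHSY1, a chondroitin synthase gene beside SELENOS, differed by 0.05 ± 0.07 (SE, adjusted p = 0.780 in limma). None of these 3 neighbours passed. The neighbours of XBP1, CCDC117 and ZNRF3, were not analysed here.

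All 4 genes varied more among SSEA1+ than among SSEA1- arrays on their brightest probe set, by the SD over 5 arrays. Over 16924 probe sets above background, 51.1% had the larger SD in SSEA1+.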
